A study of Rattus norvegicus with 10 samples.

Results

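The genes described here are 9 complement components that hepatocytes make and secrete into plasma: C3, C5, C6, C8a, C8b, C9, Cfb, Cfi and Masp1. The list is of named genes grouped by known role, with no threshold on a value. A probe named for the gene was present for 8 of the 9, out of 13832 genes named on the array, and C5 had none. The 8 measured genes had 11 probes, and all 11 passed the filter on dim probes. Expression was measured on Agilent 1-colour rat arrays of the 4x44K format, hybridised from 150 ng of liver RNA of 10 male Wistar rats, 5 in each of 2 groups. The DEN/TAA rats received 1 intraperitoneal dose of diethylnitrosamine (DEN), a liver carcinogen that hepatocytes activate to a DNA-alkylating agent, of 200 mg/kg when 6 weeks old. Thioacetamide (TAA), a hepatotoxin that causes fibrosis and cirrhosis, followed after an interval of 2 weeks: 200 mg/kg intraperitoneally, 2 injections a week, with a pause of 1 week after every 3 weeks, over 23 weeks in all. Control rats received vehicle. The labels give an age of 23 weeks for every rat, so the time between the last injection and sampling is not settled by them, and they do not say whether the piece of liver held tumour. The comparison asks which complement genes differed in the liver after the combined treatment, and DEN and TAA were not given apart in these samples.

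Complement is a cascade of plasma proteins that coats microbes and damaged cells and can pierce their membranes. Recognition through antibody, carbohydrate patterns or spontaneous turnover leads to convertases that cleave C3, the step at which the routes meet, and then C5, after which C6, C7, C8 and C9 assemble into the membrane attack complex. The liver is the main source of most of these proteins, and the genes of several are induced in hepatocytes as part of the acute-phase response to interleukin-6 and interleukin-1, whereas C1q, properdin and the receptors are made mainly by myeloid cells.

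Of the 8 measured components, 7 were lower in the DEN/TAA livers and 0 were higher, by limma with Benjamini-Hochberg adjustment over all genes tested at a threshold of 0.05. Over the 6855 genes tested, 16.3% were lower and 39.2% were higher by the same rule. C6, Masp1, C8b, Cfb, C8a and C3 were lower by between 2.33-fold and 4.29-fold with no overlap between the groups, Cfi was lower by 1.34-fold with overlap, and C9 did not pass the test. Groups that did not overlap were seen in 39.5% of all genes tested and in 6 of the 8 components. The median difference of the 8 was -1.43 on the log2 scale, against 0.33 over all genes tested. In these bulk samples, fewer hepatocytes and less complement RNA per hepatocyte cannot be told apart.

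Several measures of the arrays and of cell type markers differed between the groups beside these results. Control arrays had 25.5% ± 6.21 of their spots clear of background and DEN/TAA arrays 40.6% ± 4.42 (SD, n = 5 each), and 5 spike-in RNAs added in equal amounts were also brighter on the DEN/TAA arrays, at 13.88 ± 0.18 against 13.06 ± 0.45 on the unscaled log2 scale (SD, n = 5 each). Levels below are therefore scaled: they are log2 signals minus the 75th percentile of each array, taken over the 6229 probes well above background on all 10 arrays, so that a value of 0 lies at that percentile. Of 8 hepatocyte markers, 6 were lower and 0 higher at this scaling and 1 was lower under all 7 scalings described below, and the log2 of their summed signal ranged from 7.67 to 8.38 in control rats and from 6.71 to 6.98 in DEN/TAA rats. Apoa1, a marker on this list, passed as higher under 5 of the 7 scalings. Among markers of other cells, those higher were 9 of 10 tested (11 listed) for Kupffer cells and macrophages and 7 of 9 (10 listed) for stellate cells and myofibroblasts, and 7 of each list were higher under all 7 scalings. For endothelial cells 2 of 3 tested (7 listed) were higher. Over all genes tested 16.3% were lower and 39.2% higher, and 5.56% were lower and 20.8% higher under all 7 scalings. The 3 tested endothelial markers are too few to set against these shares. Many markers of the remaining cell types were above background on no control array and on all DEN/TAA arrays, namely 1 of 3 tested (7 listed) for neutrophils, 4 of 5 (10 listed) for T, NK and B cells and 3 of 4 (7 listed) for biliary and progenitor cells. Such markers passed the filter through the DEN/TAA arrays alone, so no count or range is given for these lists. The Kupffer cell and macrophage list also held 1 such marker among its 10 tested. Its counts and range include that marker, which is no support for a direction. Vsig4, also on this list, was above background on 2 of 5 control arrays. The summed level did not overlap for stellate markers (-0.06 to 0.53 in controls, 1.92 to 2.56 in DEN/TAA) or for macrophage markers (1.99 to 3.05 against 3.29 to 4.18), and it overlapped for endothelial markers. Their part in the results for the complement genes was not tested.

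C3, the central component whose cleavage starts opsonisation and amplification, had scaled log2 signals of 6.43, 6.02, 5.89, 6.32 and 6.93 in control rats 1 to 5 and of 4.88, 5.35, 5.13, 5.06 and 5.08 in DEN/TAA rats 1 to 5. Every DEN/TAA rat lay below every control rat. The means were 6.32 ± 0.41 and 5.10 ± 0.17 (SD, n = 5 each), a difference of -1.22 (SE 0.20; limma adjusted p = 0.000346) or a 2.33-fold lower level. Cfb encodes factor B, which pairs with a fragment of C3 to form the alternative pathway convertase. Its values were 3.43, 2.77, 3.13, 3.28 and 3.04 in control rats and 1.34, 1.99, 1.08, 1.82 and 1.71 in DEN/TAA rats, again without overlap. Factor B RNA was lower by 2.92-fold, at -1.54 (SE 0.20; limma adjusted p = 7.08e-05).

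Cfi encodes factor I, the plasma protease that inactivates C3b and C4b and so limits the convertases. Its values were 4.42, 4.64, 4.64, 4.87 and 5.08 in control rats and 4.21, 4.25, 4.25, 4.47 and 4.33 in DEN/TAA rats. DEN/TAA rat 4 lay above control rat 1, and the other DEN/TAA rats lay below the control range. The difference of -0.43 (SE 0.15; limma adjusted p = 0.0328) was the smallest of those that passed, and it did not pass when control rat 4, control rat 5 or DEN/TAA rat 1, 2 or 3 was left out, with values between -0.42 and -0.34 and adjusted p between 0.0619 and 0.0737. The opposite roles of factor B and factor I made their within-array difference of interest, since it does not change when an array is scaled by a constant. Cfb minus Cfi was -0.98, -1.86, -1.51, -1.59 and -2.03 in control rats and -2.87, -2.26, -3.18, -2.65 and -2.62 in DEN/TAA rats. All 5 DEN/TAA rats lay below all 5 control rats, and the difference fell by 1.12, from -1.60 ± 0.40 to -2.71 ± 0.34 (SD, n = 5 each; 2-sided exact permutation p = 0.00794, the smallest that the 252 assignments can give; 0.0397 after adjustment over 5 pairs). Factor B RNA thus fell relative to factor I RNA in the same livers. C3 minus Cfb was 3.19 ± 0.43 in control and 3.51 ± 0.32 in DEN/TAA rats (SD, n = 5 each), with overlap (exact permutation p = 0.222, the same after adjustment), so a change of C3 relative to its convertase partner was not detected at this scaling, whereas with the authors' table and with quantile normalization, which also reshape each array by brightness, the difference was 1.09 and 1.21 (exact permutation adjusted p = 0.0198 for both).

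Masp1 gives, by alternative splicing, the lectin pathway proteases MASP-1 and MASP-3. Its brightest probe read -0.61, -0.55, -0.72, 0.11 and -0.21 in control rats and -2.86, -2.60, -2.69, -2.24 and -1.56 in DEN/TAA rats. The groups were apart, with a difference of -2.0 (SE 0.26; limma adjusted p = 6.2e-05), a 3.99-fold lower level. Its other probes gave -1.25 (adjusted p = 0.000291 by limma over all probes) and -1.26 (adjusted p = 0.00429), the first above background on 4 of 5 arrays in each group and the second on 2 of 5 control and 3 of 5 DEN/TAA arrays. The 3 probes had the same direction. Over the 14277 probes tested, 13.7% were lower by this rule. Which of the splice forms each probe reads is not given in the files.

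**Figure D1:**
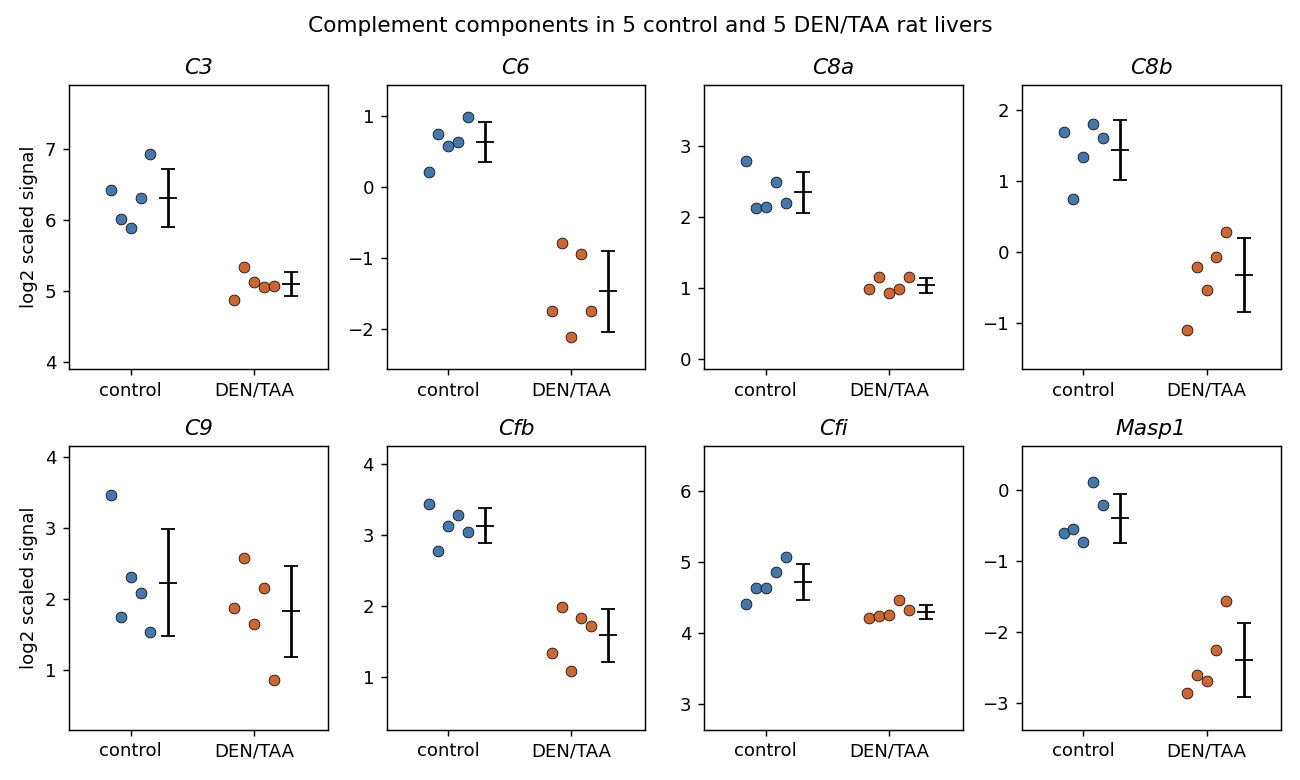
Scaled log2 signal of each of the 8 measured complement components in the 10 rats; each point is 1 rat, and the group mean and SD are drawn beside the points for 5 control and 5 DEN/TAA rats. The groups lie apart for C3, C6, C8a, C8b, Cfb and Masp1 and overlap for C9 and Cfi.

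Among the terminal components, C6, the protein that joins C5b to begin the membrane attack complex, showed the largest difference of the 8. It read 0.21, 0.74, 0.57, 0.64 and 0.99 in control rats and -1.75, -0.79, -2.11, -0.95 and -1.75 in DEN/TAA rats. The groups did not overlap, and C6 was lower by 4.29-fold, at -2.10 (SE 0.26; limma adjusted p = 5.19e-05). C8 is made of 3 chains, of which C8a and C8b encode alpha and beta. C8b read 1.69, 0.74, 1.34, 1.80 and 1.61 in control rats and -1.10, -0.21, -0.54, -0.07 and 0.27 in DEN/TAA rats. These values were also apart, with a difference of -1.77 (SE 0.27; limma adjusted p = 0.00024), a 3.40-fold lower level.

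The brighter C8a probe read 2.79, 2.12, 2.13, 2.49 and 2.19 in control rats and 0.98, 1.15, 0.92, 0.98 and 1.15 in DEN/TAA rats. The DEN/TAA values lay close together, below all control values, and the difference was -1.31 (SE 0.16; limma adjusted p = 4.79e-05), a 2.48-fold lower level. A second, dimmer C8a probe did not show this. It read -1.23, -2.33, -1.31, -2.24 and -3.10 in control rats and -2.34, -2.36, -2.01, -2.32 and -3.00 in DEN/TAA rats, overlapping ranges that differed by -0.36 (SE 0.34; adjusted p = 0.403 by limma over all probes). With the mean over both probes, C8a differed by -0.84 (limma adjusted p = 0.00645). The value for C8a thus rests on the brighter probe.

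C9, which polymerises into the pore of the complex, read 3.46, 1.75, 2.32, 2.09 and 1.54 in control rats and 1.87, 2.58, 1.65, 2.16 and 0.86 in DEN/TAA rats. Control rat 1 was the highest and DEN/TAA rat 5 the lowest, and the rest of both groups lay within the same range. The difference was -0.41 (SE 0.38; 95% interval -1.25 to 0.44; limma adjusted p = 0.391), so a reduction as large as that of C3 is inside the interval and that of C6 is outside it. It was -0.10 without control rat 1 (limma adjusted p = 0.811) and -0.16 without DEN/TAA rat 5 (0.724).

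Within single arrays, C6 minus C9 was -1.60 ± 1.03 in control and -3.30 ± 0.46 in DEN/TAA rats (SD, n = 5 each), a difference of -1.69 that did not pass after adjustment (exact permutation p = 0.0238, adjusted 0.0595). It was -2.11 without control rat 1 and passed there and without DEN/TAA rat 5 (adjusted exact permutation p = 0.0397 for both), and also with the authors' table, with quantile normalization and without the 2 control arrays with the fewest spots above background. C8a minus C9 differed by -0.90 (exact permutation p = 0.0397, adjusted 0.0661) and by -1.17 without DEN/TAA rat 5, where it passed (adjusted p = 0.0397, exact permutation), and it was -0.43 with the mean over the C8a probes (exact permutation adjusted p = 0.208). C8a minus C8b, the ratio of chains of 1 protein, was 0.91 ± 0.32 in control and 1.37 ± 0.46 in DEN/TAA rats (SD, n = 5 each). These values, of the brighter C8a probe, overlapped (exact permutation p = 0.103, adjusted 0.129), so unequal change of the chains was not detected. The difference was 0.46, and 0.93 with the mean over the C8a probes (exact permutation adjusted p = 0.0794). It was positive under each of 16 alternatives and passed under none, with a lowest adjusted exact permutation p of 0.0556.

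In RefSeq (GRCr8), C8a and C8b are neighbours with 0 protein-coding genes between them, and C6 lies on the same chromosome as C7 and C9, with 1 and 9 protein-coding genes between. RefSeq promoters were matched for 7 of the 9 components, C9 and Cfb being without one. The 250 bases before the start of C3 (chr9:2201340-2201589, minus strand), C6 (chr2:55573383-55573632, plus strand), C8a (chr5:124866632-124866881, minus strand) and C8b (chr5:124763864-124764113, plus strand) are shown because these genes were lower together here and their promoters hold a C/EBP match, C/EBP being the factor family of the hepatic acute-phase response. Each is written 5′ to 3′ on the gene's strand, and capitals mark matches to the motifs named after them.
C3: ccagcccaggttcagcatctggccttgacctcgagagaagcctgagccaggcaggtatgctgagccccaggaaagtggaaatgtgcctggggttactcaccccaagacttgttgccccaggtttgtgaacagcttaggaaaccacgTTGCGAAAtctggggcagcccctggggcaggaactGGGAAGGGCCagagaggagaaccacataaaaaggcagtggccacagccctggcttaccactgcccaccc
C6: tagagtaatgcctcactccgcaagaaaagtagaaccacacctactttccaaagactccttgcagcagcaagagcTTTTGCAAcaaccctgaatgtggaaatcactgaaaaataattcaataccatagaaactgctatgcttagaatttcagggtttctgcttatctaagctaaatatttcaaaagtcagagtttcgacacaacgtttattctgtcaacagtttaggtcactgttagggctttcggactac
C8a: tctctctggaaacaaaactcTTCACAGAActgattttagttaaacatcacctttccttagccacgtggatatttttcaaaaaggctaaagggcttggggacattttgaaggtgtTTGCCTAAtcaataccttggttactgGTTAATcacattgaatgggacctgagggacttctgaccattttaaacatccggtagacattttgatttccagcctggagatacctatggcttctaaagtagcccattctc
C8b: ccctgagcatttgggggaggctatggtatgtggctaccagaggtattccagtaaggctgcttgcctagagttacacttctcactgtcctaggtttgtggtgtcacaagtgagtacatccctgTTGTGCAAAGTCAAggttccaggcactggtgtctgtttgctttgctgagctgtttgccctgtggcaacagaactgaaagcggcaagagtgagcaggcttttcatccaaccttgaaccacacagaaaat

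The motifs were chosen after the promoters had been seen, and were searched on both strands. The C/EBP pattern TTGCNNAA lay in C3, C6, C8a and C8b, at -104, -176, -136 and -128 bases from the start, and in 9.22% of 33469 promoters of this length. The NF-kB pattern, GGGA and CC with 4 free bases between, lay in C3 at -69 and in 16.4% of promoters. The STAT pattern TTCNNNGAA (C8a, -230) occurred in 7.67%, and the HNF1 core GTTAAT (C8a, -110, and C5) in 6.45%. The HNF4 pattern CAAAGTCNA (C8b, -123) occurred in 0.87% of promoters, and in C8b it overlaps the C/EBP match, so the capitals there run together. Masp1, which was also lower, and Cfi held no match to these letters in this window, and C5 held no C/EBP match. The promoters printed were chosen for a C/EBP match, so its presence in each of them is not a result. A match is a description of the sequence, and binding was not measured.

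The direction and the calls were recomputed under 7 ways of scaling the arrays, because the groups differed in brightness. The median over all genes tested moved between 0.02 and 0.99 with the scaling, so each difference is also given relative to it. C6 (-2.41 to -1.44), Masp1 (-2.30 to -1.34), C8b (-2.07 to -1.11), Cfb (-1.85 to -0.87) and C8a (-1.62 to -0.65) passed as lower under all 7 scalings, as did 5.56% of all genes tested. For C8a these are values of the brighter probe, and it passed narrowly with the spike-in scaling and the spike-in curve (limma adjusted p = 0.0483 and 0.049). C3 was negative in each but passed under 3 of 7, from -1.53 with the percentile over all probes to -0.13 with background correction and quantile normalization (limma adjusted p = 0.465). Cfi passed under 2 of 7 and turned sign, from -0.73 to 0.36, and C9 passed under 0 of 7, from -0.71 to 0.25. Relative to the median of all genes, all 8 were negative under each scaling, with C3 between -1.55 and -0.25, C9 between -0.73 and -0.31 and Cfi between -0.76 and -0.04.

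**Figure D2:**
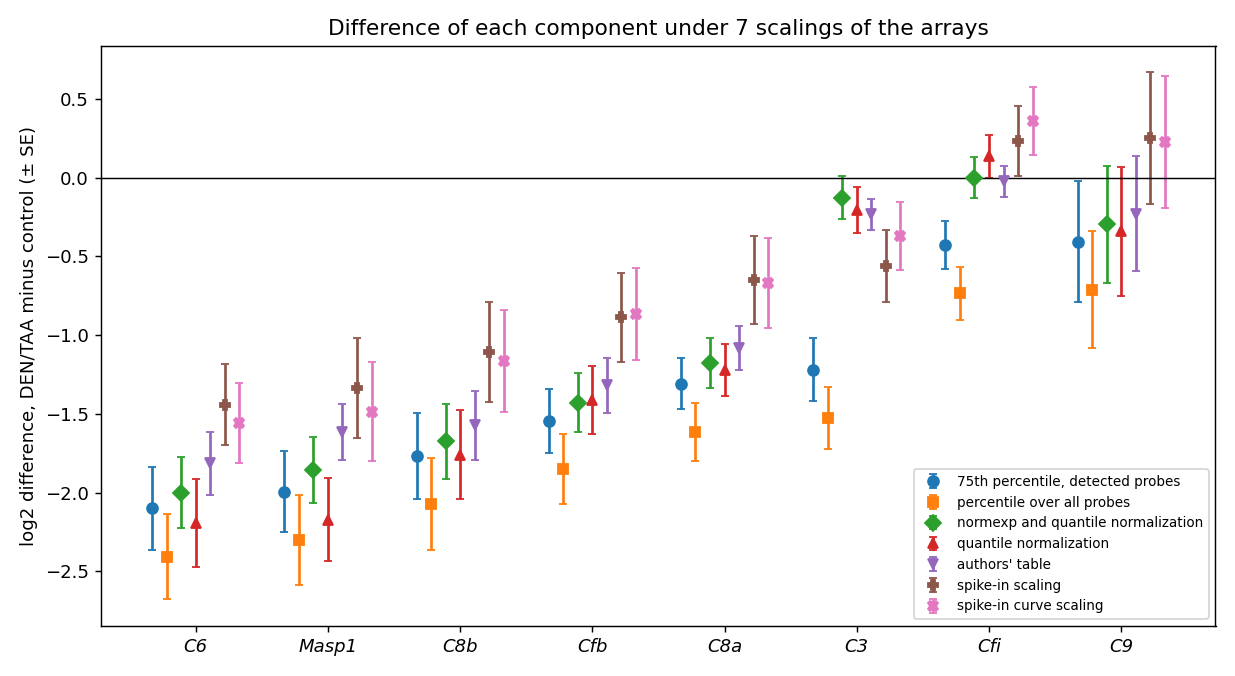
Difference between DEN/TAA and control rats (log2) for each component under 7 scalings of the arrays, 1 colour and symbol for each; bars are the SE from limma. C6, C8a, C8b, Cfb and Masp1 lie below 0 under each scaling, whereas C3 approached 0 and C9 and Cfi crossed it.

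Before any scaling, the brightness of C3 differed by 0.26, of the brighter C8a probe by 0.17 and of Cfi by 1.05 between the groups, and that of C9 by 1.07. C6 differed by -0.62, the brightest Masp1 probe by -0.52, C8b by -0.29 and Cfb by -0.07. The dimmer probes lay higher, at 1.11 for C8a and at 0.23 and 0.22 for Masp1. The 5 brightest spike-in RNAs differed by between 0.62 for the brightest and 1.02 for the dimmest of them. The unscaled differences of C3 and the brighter C8a probe were smaller than those of each of these 5. The spike-ins nearest in brightness differed by 0.62 and 0.75 for Cfi and by 0.80 and 0.89 for C9. The differences of Cfi and C9 lay above these, and no test of this was made. The arrays were printed on 3 slides that each held both groups. Within slides, the difference lay between -2.56 and -1.75 for C6, -2.15 and -1.51 for Masp1, -1.87 and -1.43 for C8b, -1.68 and -1.44 for Cfb, -1.39 and -1.18 for C8a, -1.55 and -0.80 for C3, -0.95 and -0.38 for C9, and -0.65 and -0.28 for Cfi. These within-slide values are at the 75th percentile scaling, and there each component was lower in the DEN/TAA rats on each slide. On slide 2 control rat 3 was the only control, and on slide 3 DEN/TAA rat 5 was the only treated rat. The differences on those slides thus rest on 1 rat of a group.

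**Figure D3:**
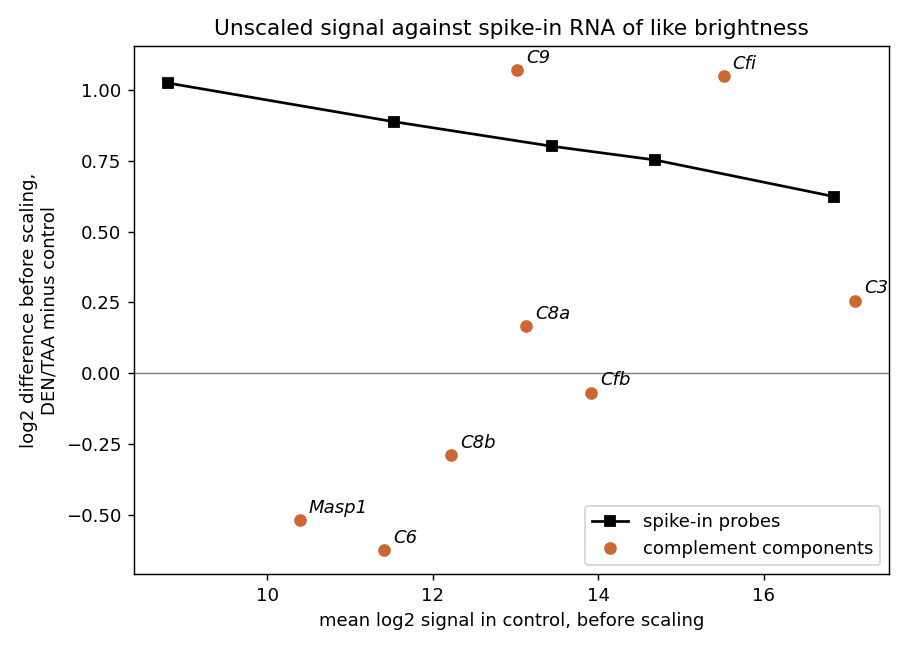
Unscaled log2 difference between the groups plotted against the mean control log2 signal, for the brightest probe of the 8 components and the 5 brightest spike-in RNAs. The spike-ins lie between 0.62 and 1.02, and 6 components, all but C9 and Cfi, lie below them.

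The components were then set against other proteins that hepatocytes secrete, since those were lower as well. Of 27 measured plasma protein genes, 24 were lower and 0 higher by limma at this scaling, with a median of -1.19, and 10 were lower under all 7 scalings, against 16.3% and 5.56% of all genes tested. Alb, Tf, Fga, Fgb, Fgg, Hp, Apoa1, Kng1 and Orm1, named after their values were seen, were above 0 under at least 1 scaling. Of these, Apoa1 passed as higher under 5 of 7 scalings, and Orm1 and Fgb each under 1. The smallest adjusted p belonged to Itih1 (-2.01; 1.72e-06) and Itih3 (-2.06; 2.58e-06), chains that bind hyaluronan in the inter-alpha-trypsin inhibitor family, and to the clotting factor gene F9 (-1.53; 4.91e-06). The per-rat median of the 27 was 5.10 ± 0.22 in control and 4.03 ± 0.16 in DEN/TAA rats (SD, n = 5 each). Relative to this median in the same rat, 81.2% of all genes tested were higher and 4.26% lower. The median itself differed by -1.07 between the groups, so most genes were higher against it. Genes of the list lie on both sides of their median, and its Itih1 and Itih3 had differences near those of C6 and Masp1. A component that was lower against the median was thus not set apart from all secreted proteins.

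Against the plasma protein median, C6 was lower by limma over all genes, at -1.03 (adjusted p = 0.00248; exact permutation p = 0.0159), as were Masp1 at -0.93 (adjusted p = 0.00174; exact permutation p = 0.0159), C8b at -0.70 (adjusted p = 0.00975; exact permutation p = 0.0159) and Cfb at -0.48 (adjusted p = 0.029; exact permutation p = 0.0159). Single rats of these 4 overlapped between groups. With the mean over its 3 probes, Masp1 was at -0.52 (exact permutation p = 0.0159). For C8b the exact permutation p was 0.0714 without the 2 control arrays with the fewest spots above background, at -0.62. C8a differed by -0.24 (limma adjusted p = 0.208; exact permutation p = 0.0476), a value that ranged from -0.30 to -0.16 as single rats were left out and was 0.15 with the mean over its probes. C3 differed by -0.15 (limma adjusted p = 0.478), but its direction depended on the normalization: it was 0.34 with quantile normalization (exact permutation p = 0.00794, the smallest possible) and 0.19 with the authors' table (exact permutation p = 0.119).

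Cfi went the other way. Cfi minus the plasma protein median was -0.80, -0.21, -0.26, -0.49 and -0.11 in control rats and 0.36, 0.14, 0.38, 0.30 and 0.16 in DEN/TAA rats. The groups did not overlap, and the difference was 0.64 (limma adjusted p = 0.00556 over all genes; exact permutation p = 0.00794). It kept its sign and passed under each of 17 alternatives, from 0.40 to 0.71. C9 differed by 0.66 with overlap (limma adjusted p = 0.117; exact permutation p = 0.167). A gene higher against this median was in the majority of the array, so the value for Cfi is a description of its place among secreted proteins.

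**Figure D4:**
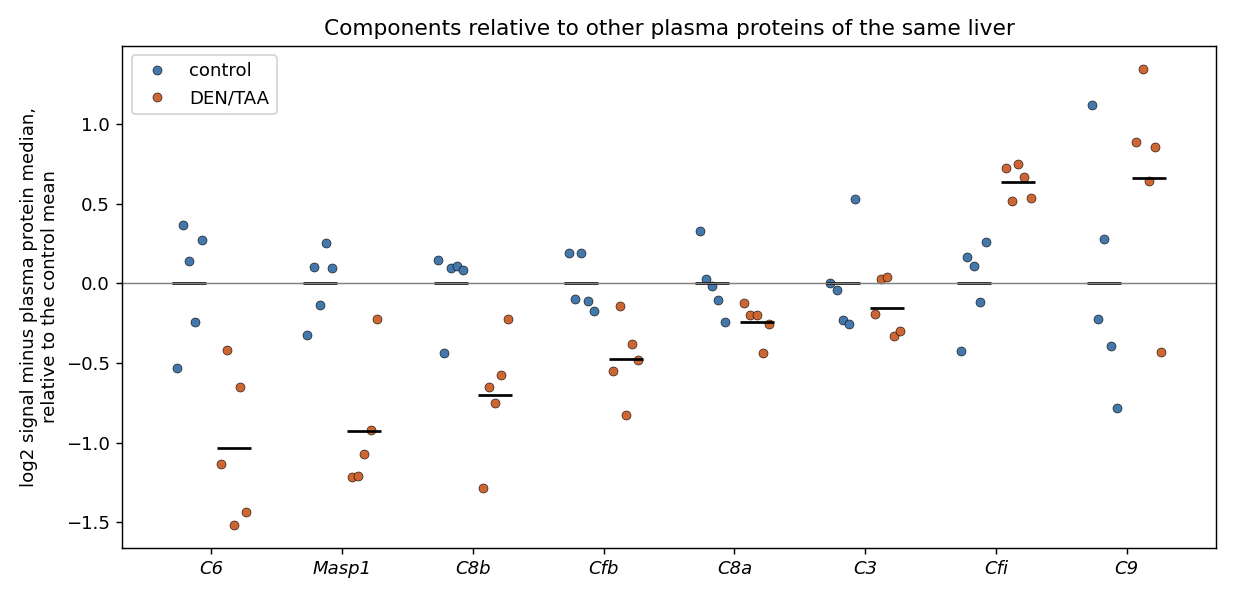
Log2 signal of each component minus the median of 27 plasma protein genes in the same rat, drawn relative to the control mean, for 5 control and 5 DEN/TAA rats; each point is 1 rat and lines are group means. Cfi is higher in the DEN/TAA rats without overlap, and C6, Masp1, C8b and Cfb have lower means in the DEN/TAA rats, with overlap.

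The rest of the pathway was read from a list of 47 further complement genes, of which 38 had a named probe and 30 were tested; 17 were lower and 10 higher by limma (16.3% and 39.2% of all genes tested), with a median of -0.75. Under all 7 scalings 6 were lower and 9 higher, against 5.56% and 20.8% of all genes tested. Of the 30, 2 (Fcnb and C5ar1) were above background on no control array and passed the filter through the DEN/TAA arrays alone. Both counts of higher genes include them, so these 2 are no support for a direction. Of 9 listed receptors and uptake proteins 4 passed the filter, and since 3 of these were above background on at most 2 of 5 control arrays, their count is no support for a direction of the group. The values were higher for Cd93 (1.36; adjusted p = 9.56e-05), a receptor of endothelial and myeloid cells, Itgb2 (2.18; 0.000137), the beta chain of complement receptors of leukocytes, and Vsig4 (1.67; 0.00175), the macrophage receptor for C3b. Itgb2 and Vsig4 were above background on 2 of 5 control arrays. C5ar1, the receptor for C5a, was not above background on any control array and was at least 1.93-fold higher at this scaling (fitted log2 difference from 0.42 to 1.93 over the 7 scalings). Their values stand beside the higher macrophage markers given above, a list that also holds Vsig4 and the C1q chains.

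The 13 tested genes that start the classical and lectin pathways included 5 higher and 7 lower, beside 39.2% and 16.3% of all genes tested, so the share that was higher was near that of the whole array. Under all 7 scalings 4 were higher and 3 lower, against 20.8% and 5.56% of all genes tested. C1qb (1.54; SE 0.22; limma adjusted p = 0.000111) and C1qc (1.86; SE 0.26; 0.000115), chains of C1q that macrophages make, were higher, and Fcnb, a ficolin, was at least 2.87-fold higher at this scaling (limma adjusted p = 7.62e-06; fitted log2 difference from 0.88 to 4.22 over the 7 scalings), being above background on 0 of 5 control arrays. Mbl1, a mannose-binding lectin of hepatocytes, was lower at -1.99 (SE 0.24; limma adjusted p = 3.49e-05). Of 8 soluble regulators, 7 were lower and 0 higher by limma, and 2 were lower under all 7 scalings, against 5.56% of all genes tested. They were led by Vtn (-2.06; adjusted p = 2.86e-06), which encodes vitronectin, and by C4bpb (-1.44; 0.000211) and C4bpa (-1.07; 0.000371; 5 of 7 scalings), chains of C4b-binding protein. Cpn1, the catalytic chain of the carboxypeptidase that trims C3a and C5a, was lower at -1.18 (limma adjusted p = 0.000765; 6 of 7 scalings). Inhibitors made by the liver were thus lower too at this scaling, and the factor I gene was among those with small differences.

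In the alternative pathway, Cfd, the protease that cleaves factor B, was higher at 1.28 (SE 0.25; limma adjusted p = 0.00112), whereas Cfb was lower. Cfp, which encodes properdin, did not pass, at 0.74 (limma adjusted p = 0.0505). Both tested pentraxins, which are acute-phase proteins that recruit C1q, were lower: Crp at -2.56 (limma adjusted p = 2.7e-05) and Apcs at -1.25 (0.000251; 5 of 7 scalings). C7, C8g and the membrane regulators gave no tested value.

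**Figure D5:**
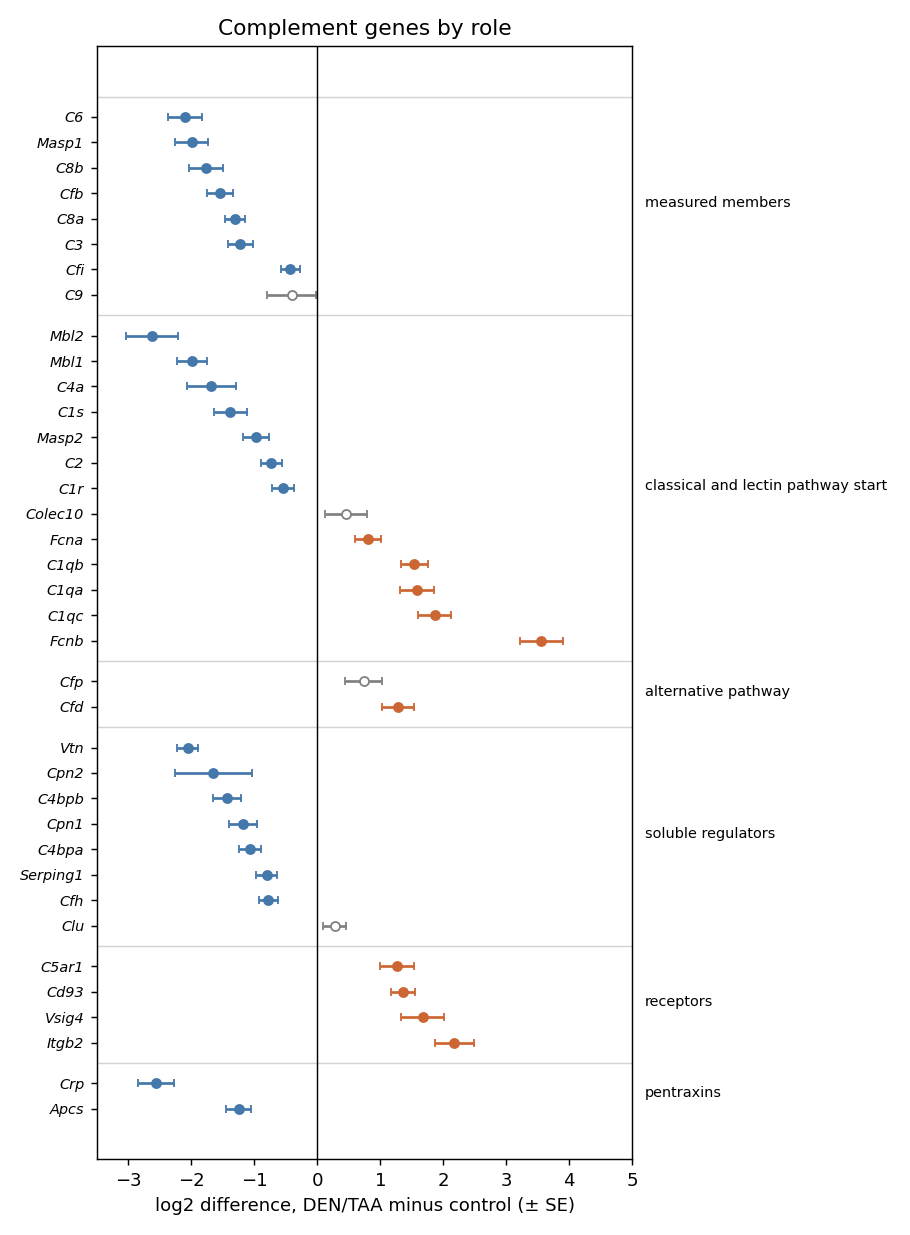
Difference between DEN/TAA and control rats (log2) for the tested complement genes, grouped by role, with the SE as bars; filled points passed the limma threshold, and Fcnb and C5ar1 are drawn at their fitted difference and not at the lower bound given in the text. The 4 tested receptors lie above 0, soluble regulators lie below it except Clu, the measured components lie below it, and the genes that start the classical and lectin pathways lie on both sides.

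Among 19 tested genes of a list of regulators of hepatic complement expression, 6 were lower, 3 higher and 10 did not pass, beside 16.3% lower and 39.2% higher over all genes tested. Under all 7 scalings 4 were lower and 2 higher, against 5.56% and 20.8% of all genes tested. Onecut1 (-2.73; limma adjusted p = 3.91e-05), a hepatocyte transcription factor, Il6r (-1.83; 0.000112), the ligand-binding chain of the interleukin-6 receptor, and Foxa1 (-2.25; 0.000159; above background on 4 of 5 DEN/TAA arrays) were lower. Cebpd, a C/EBP factor of the acute-phase response, was higher at 1.38 (limma adjusted p = 0.000292), as were Ifngr1 (1.5; 0.00166; above background on 3 of 5 control arrays) and Nfkbia (0.75; 0.0463; 3 of 7 scalings). The other C/EBP genes, named after their values were seen, did not share the direction of Cebpd. Cebpa was lower at -1.75 (limma adjusted p = 0.000488; 7 of 7 scalings; above background on 4 of 5 arrays in each group), and Cebpb differed by -0.19 (limma adjusted p = 0.794). Whether these RNAs bear on the complement genes was not tested.

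The genes whose centred profiles over the 10 arrays lay nearest to each component were found by root mean square distance in log2 units, over all genes tested. For C3 they were Hp (0.137), Apoe (0.149) and Gc (0.169), which encode the plasma proteins haptoglobin, apolipoprotein E and vitamin D-binding protein. For C6 they were Cyp2c6v1 (0.310), Vtn (0.318) and Itih3 (0.327), for C8a P2ry2 (0.141), Hgfac (0.144) and Asgr1 (0.156), and for C8b Saa4 (0.267), C1s (0.292) and F10 (0.295). Cfb lay nearest to Asgr1 (0.240), Cldn2 (0.241) and C4bpb (0.242), and Masp1 to Gde1 (0.150), Apoa5 (0.215) and Rdh7 (0.248). The neighbours of Cfi were Ctsa (0.104), Dpm1 (0.119) and Wdr5b (0.127), and those of C9 were Selenow (0.306), Nherf1 (0.314) and Sf3a2 (0.318). Among the components themselves, C8a and Cfb were the closest pair (0.242) and C9 and Masp1 the farthest (1.20).

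In the ranking of all genes tested by their difference, the share at or below each component was 2.58% for C6, 3.02% for Masp1, 3.91% for C8b, 5.11% for Cfb, 6.51% for C8a, 7.12% for C3, 19.4% for Cfi and 20.0% for C9. The gaps between neighbours in the run of C6, Masp1, C8b and Cfb, between C8a and C3, and between Cfi and C9 were smaller than the larger standard error of each pair, and that between Cfb and C8a was slightly larger. No test of the order was made.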

How the data were processed

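Liver RNA of 10 rats was hybridised to 1 array each. The deposited scanner files hold spot intensity (gProcessedSignal), which the authors' scanner software corrected for background. Per the file headers this was version 11.5.1.1 of Agilent Feature Extraction, and per the submitters' processing notes 15.5. The authors' deposited table holds log2 values and served as an alternative. Probes were named by matching the transcript identifier in the scanner output to rat RefSeq: of 41012 probes, 17502 had 1 gene symbol and 23510 none. A gene said to have no named probe is one for which this match gave none. Control spots and outlier flags were left out, replicate spots were averaged, and the log2 intensity was centred on the 75th percentile of the array, taken over probes above background on all 10 arrays. Probes well above background on at least 5 of 10 arrays were kept, and the brightest stood for its gene. No member spot was saturated.

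Groups were compared with limma 3.58.1 in R 4.3.3 (lmFit, eBayes, 2-sided, Benjamini-Hochberg over all genes or probes), and differences within arrays with the exact permutation test over rats. The limma step was tested on simulated arrays with known changes. A pair of C3 and C5 was planned and could not be formed, so 5 pairs were adjusted together. P-values of components against plasma proteins are unadjusted in the exact test and adjusted over all genes in limma. Where the labels do not state that arrays of a group are separate animals, the spread may be in part technical. Replicate numbers did not pair the rats, with correlations of same-numbered deviations from -0.22 to 0.20. Named genes were every member with every probe, up to 4 further complement genes that passed per role, up to 3 regulators and plasma proteins in each direction by smallest adjusted p, and the 3 nearest profiles. Of the further complement genes, 1 is in the list's counts and is not reported here. The members and lists were chosen with earlier results of these data known. A fold said to be at least a value sets the bright group's mean against, per array, the higher of the lowest signal among probes above background and the probe's own. The number of arrays limits the precision.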

Additional observations from a re-analysis of the deposited data

How the results depend on the processing

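Of the components, 5 to 7 were lower and 0 higher under 24 alternatives (6 to 7 as single rats were left out), and C6, C8a, C8b, Cfb and Masp1 passed in each. The sign of Cfi turned to 0.0010 with background correction and quantile normalization, 0.14 with quantile normalization, 0.23 with spike-in scaling and 0.36 with the spike-in curve, the last chosen after seeing the data. C9 turned to 0.25 and 0.23 under the spike-in scalings. Against the plasma proteins, C3 turned to 0.19 with the authors' table, 0.34 with quantile normalization (exact permutation p = 0.00794) and 0.024 without the 2 dimmest control arrays, and C8a to 0.15 with the mean over probes. Genes higher over the whole table numbered 1617 when all probes set the percentile, 4443 and 4091 under the spike-in scaling and curve, and 1154 with a filter on all 10 arrays, where 3568 were tested. Genes lower numbered 396 and 438 with the spike-in scaling and curve and 5801 with no filter, where 13832 were tested. Of the other complement genes, 6 and 7 were lower with the spike-in scaling and curve, and 6 were higher with the filter on all 10 arrays. C3 minus Cfb passed with the authors' table (1.09) and quantile normalization (1.21). C6 minus C9 passed at -1.59 and -1.85 with these and at -1.89 without the 2 dimmest control arrays; as single rats were left out it ranged from -2.11 to -1.43, and C8a minus C9 from -1.17 to -0.74. With the replicate block, 7 components, 1121 genes and 16 other complement genes were lower and 0, 2685 and 10 were higher. With the slide as a block, 7 components were lower. The cause of these shifts was not tested.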
